A study of Bos taurus with 18 samples.

Results

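The genes described here were those that bovine endometrial epithelial cells (bEECs) expressed and bovine endometrial stromal cells (bESCs) did not, or barely did, under control conditions. Levels were given as CPM, the counts of a gene per 1000000 counts of the sample. Members were chosen by their CPM in vehicle control (VC) samples only: a gene was a member when it had 20 CPM or more in all 3 VC bEEC samples and less than 0.5 CPM in all 3 VC bESC samples. Of 36075 genes, 90 met both limits, and AGR2, which was to be left out beforehand, was removed, which left 89 members. CFTR, SLC5A1, SLC14A1 and GJB6 were also to be left out but did not meet the limits.

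RNA was sequenced from 18 samples of a 3D endometrium-on-a-chip, in which bEECs lined a chamber under flow and bESCs lay in a static chamber across a porous membrane. The primary cells came from 3 uterine tracts of late-luteal cattle collected at an abattoir, and each device was seeded with both cell types of 1 animal. The epithelial side received PBS (VC), rbCAPG (a recombinant bovine form of CAPG) or rbPDI (likewise of PDI, the product of P4HB) for 24 h. Both proteins were given at 1000 ng/mL, and the 2 cell types and 3 exposures made 6 groups of 3 samples. The cell types had been enriched by differential trypsinization, so each population could hold some cells of the other, and in bulk RNA fewer cells of a type cannot be told apart from less RNA per cell.

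Epithelia are sheets of polarised cells that are sealed to each other by junctions and carry mucins and transporters on their surface, while stromal cells lie apart in matrix and lack these structures. In the uterus the luminal epithelium is the first tissue that the embryo and its secretions meet. CAPG caps actin filaments, and P4HB helps proteins fold by forming and rearranging disulfide bonds, and both are released by the bovine conceptus.

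A sample held between 10072851 and 44253149 counts, and the smallest library was rbPDI bESC of animal 1, where 3 counts amount to 0.298 CPM against 0.0678 to 0.146 CPM in the other bESC samples. Symbols were known for 3 of the 89 members, MUC1, GPX2 and OCLN, and a biotype without a symbol for 2 more. These annotations came from the study's lists of genes that changed with rbCAPG in the same samples, so the genes that can be named were picked for a change and their direction is not independent evidence. The marker check of the cell types was void, because 3 of 46 markers had an identifier. Among them MUC1 was itself a member, and the stromal transcription factors HAND2 and ZEB1 were higher in bESCs than in bEECs. HAND2 ranged from 4.66 to 7.35 CPM in VC bESCs and from 0.0709 to 0.176 CPM in VC bEECs. ZEB1 ranged from 24.1 to 48.1 CPM in VC bESCs and from 1.88 to 2.50 CPM in VC bEECs.

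In VC bEECs the members spanned a wide range of levels, which are given as a description, since these values chose the members. The mean of a member ran from 22.6 to 2636 CPM, with a median of 56.3 CPM and quartiles of 35.3 and 112 CPM, and 26 members were above 100 CPM. The 3 highest members, which have no symbol, held 38.5% of the summed level. MUC1, a membrane-bound mucin of the apical surface, ranked 8th of 89. GPX2, a glutathione peroxidase of epithelia that reduces hydroperoxides, ranked 21st, and OCLN, occludin, a membrane protein of tight junctions, ranked 30th.

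The limits cut through a continuous range. The lowest VC bEEC sample of the members just inside the epithelial limit stood at 20.05, 20.06 and 20.5 CPM, and that of the genes just outside at 19.95, 19.94 and 19.9 CPM. The highest VC bESC sample of the members just inside the stromal limit stood at 0.488, 0.453 and 0.430 CPM, and that of the genes just outside at 0.511, 0.521 and 0.534 CPM. In VC bESCs 47 members had 3 counts or fewer in each of the 3 samples, and 14 of them had none at all.

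**Figure D1:**
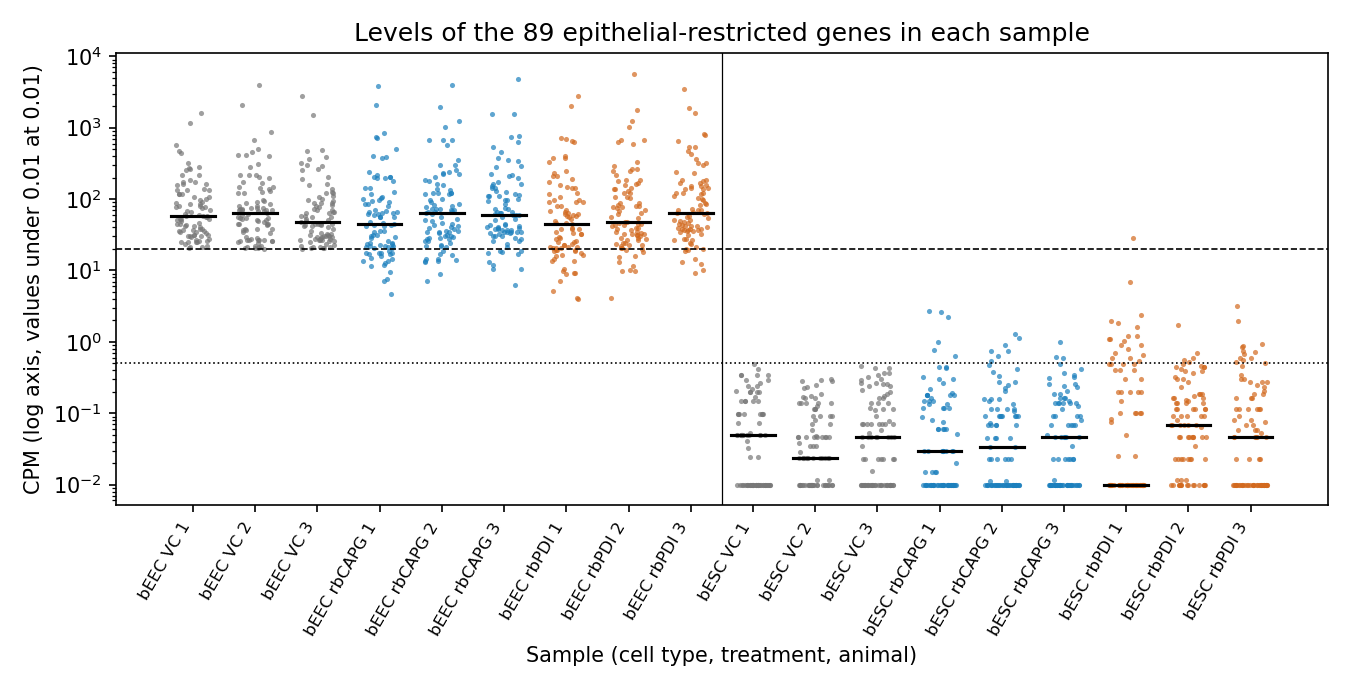
Level of each of the 89 members (points, CPM on a log axis, values under 0.01 drawn at 0.01) in each of the 18 samples, coloured by treatment, with the median as a black bar. The dashed line is the epithelial limit of 20 CPM and the dotted line the stromal limit of 0.5 CPM, and in treated bESCs all but 5 members stay below 2 CPM, with the highest value 28.7 CPM for ENSBTAG00000047380 in rbPDI bESC of animal 1.

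Levels also differed between animals. The ratio of the highest to the lowest VC bEEC sample had a median of 1.62 over the members, and was above 2 in 25 members and above 3 in 8. The widest ratio was 9.56, in a member without a symbol that had 48.9, 33.2 and 318 CPM in VC bEECs of animals 1 to 3. With rbCAPG the same member had 17.5, 14.6 and 132 CPM, and with rbPDI 19.1, 18.04 and 143 CPM, so that animal 3 was highest in all 3 groups. The same animal was highest in all 3 bEEC groups for 38 of the 89 members (42.7%), against 28.2% of all 17931 genes tested. Of the genes tested, 4917 had 20 CPM or more in every VC bEEC sample, as all members had, so these shares are not a like comparison. The 38 members were spread over the animals, with 14 led by animal 1, 12 by animal 2 and 12 by animal 3.

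The members stayed higher in bEECs than in bESCs when the proteins were present, in samples that did not choose them. Called means here an adjusted p under 0.05 in edgeR's quasi-likelihood test over all genes tested together with a log2 fold change past 1. Between bEECs and bESCs with rbCAPG, 89 of 89 members were called higher in bEECs, where 20.7% of all genes tested were, and with rbPDI 89 of 89 were, where 18.7% were. The same animals served in VC and in treated devices, and the limits had already set the members far apart in VC samples. The fit also takes 1 estimate of the spread per gene from all 18 samples. These calls were thus largely set by the choice of members and are given as a description. The mean bEEC level was a median of 608-fold the bESC level with rbCAPG, and 299-fold with rbPDI, when the members with 3 counts or fewer in every bESC sample of a group (37 and 33 members) were set at the bound that 3 counts per library allow. The bound was a mean of 0.0753 CPM with rbCAPG and 0.145 CPM with rbPDI. In the smallest library, rbPDI bESC of animal 1, it was 0.298 CPM. A higher bound lowers the ratio of each member set at it, so these medians are not a like comparison of the proteins. The lowest ratio of a member was 32.8-fold with rbCAPG and 22.5-fold with rbPDI.

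Both limits together held less often than the direction. With rbCAPG 67 members kept 20 CPM or more in every bEEC sample, 77 stayed below 0.5 CPM in every bESC sample, and 56 did both. With rbPDI the counts were 66, 63 and 46. Over all 12 treated samples, 43 members met both limits. Because the VC samples were chosen to lie past the limits, some members near a limit cross it in any other set of samples. These counts used CPM without the TMM scaling between samples that the tests used. The TMM factor of rbCAPG bEEC of animal 1 was 0.703, against 1.17 with VC. A member without a symbol had 17.0 CPM in that rbCAPG sample but 24.3 after scaling. The lowest level of a member in a treated bEEC sample was 4.62 CPM with rbCAPG and 3.94 CPM with rbPDI, so that each of the 89 remained detected in bEECs.

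With rbCAPG the median of the epithelial members moved little, while single members moved both ways. The fit that leaves out the animal called 2 of the 89, and the fit with the animal as a block, given below, called 9. The 2 called without the animal were higher, and neither has a symbol. The 2 called members are 2.25% of the set, against 0.513% of all genes tested and 0.325% of the 4917 genes that also had 20 CPM or more in every VC bEEC sample. The median log2 fold change of the members was 0.03, with quartiles of -0.31 and 0.39, beside 0.02 for all genes tested, and 56 members lay within 0.5 of 0. At an unadjusted p under 0.05 there were 16 members. VC and rbCAPG samples did not overlap in 15 members that were higher and 12 that were lower, where 8.72% and 6.64% of all genes did so.

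Scaled by the TMM method (normalised CPM, used for the levels that follow), ENSBTAG00000049223 had 18.4, 27.98 and 34.7 normalised CPM in VC bEECs of animals 1 to 3. It had 144, 132 and 116 with rbCAPG and 121, 117 and 115 with rbPDI. All 6 treated samples lay above the 3 VC samples, and the member rose with rbCAPG (log2 fold change 2.27, SE 0.28, edgeR adjusted p = 0.000704) and with rbPDI (2.12, SE 0.28, edgeR adjusted p = 0.000868). Both calls held in each of the 12 alternatives fitted, which included leaving out each of the samples compared. The rbCAPG and rbPDI comparisons share their VC samples, so the 2 values are not independent of each other.

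ENSBTAG00000009080 had 60.3, 67.8 and 73.0 normalised CPM in VC bEECs, 200, 134 and 216 with rbCAPG and 177, 113.2 and 175 with rbPDI. The treated samples again all lay above the VC samples, with animal 2 the lowest in each treated group. It rose with rbCAPG (log2 fold change 1.45, SE 0.26, edgeR adjusted p = 0.0400), while with rbPDI it was not called (1.21, SE 0.25, edgeR adjusted p = 0.0675). In 3 of the 12 alternatives the rbPDI value was called, with the animal as a block (1.18, SE 0.20, edgeR adjusted p = 0.0116), in the 9 bEEC samples alone (1.23, edgeR adjusted p = 0.0313) and by DESeq2 (1.23, adjusted p = 0.000372). The rbCAPG call was lost without VC animal 1, 2 or 3 or without rbCAPG animal 1 or 3, with adjusted p-values from 0.122 to 0.261. In bESCs this member had 0 counts in 8 of 9 samples and 0.5 in the other.

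When the animal was entered as a block, 9 members were called with rbCAPG, 6 higher and 3 lower (10.1% of the members), where 2.19% of all genes tested and 1.22% of the genes at a like VC level were. The block changed the call of MUC1. Its normalised CPM were 276, 443 and 236 in VC bEECs, 708, 734 and 652 with rbCAPG and 772, 752 and 608 with rbPDI. Each treated sample lay above each VC sample, and the spread between animals was smaller with rbCAPG (698 ± 41.5, SD, n = 3) than with VC (318 ± 110, SD, n = 3), a difference in spread that was not tested. The log2 fold change of MUC1 with rbCAPG was 1.13 (SE 0.31, edgeR adjusted p = 0.160), and 1.17 with the block (SE 0.29, edgeR adjusted p = 0.0444).

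**Figure D2:**
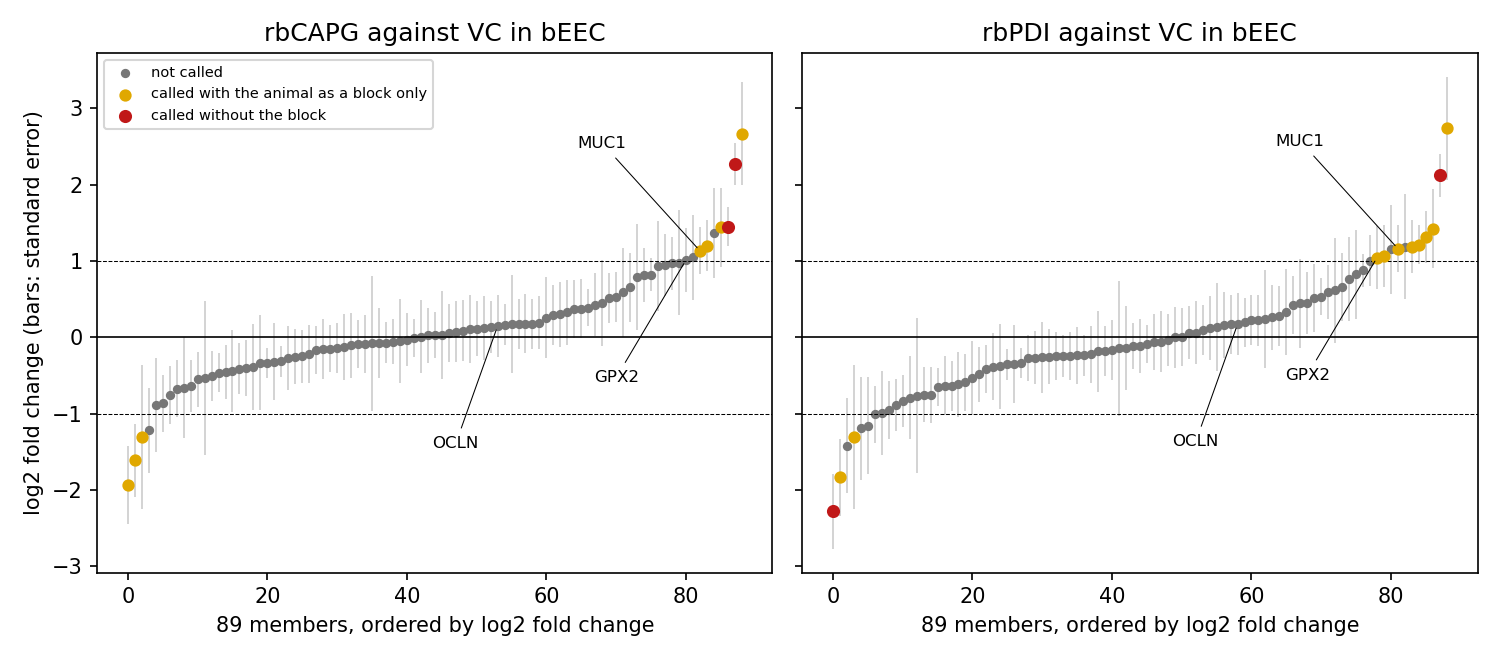
Log2 fold change of each of the 89 members in bEECs with rbCAPG (left) and rbPDI (right) against VC, ordered by size within each panel, with standard errors as bars and dashed lines at 1 and -1. Red points were called without the animal as a block (2 in each panel), yellow points with it only, and most grey points lie within 0.5 of 0.

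With rbPDI 2 of the 89 members were called, 1 higher and 1 lower. These 2.25% of the set stand beside 0.809% of all genes tested, 0.77% higher and 0.039% lower, and beside 0.468% of the genes at a like VC level. The median log2 fold change of the members was -0.11, with quartiles of -0.42 and 0.42, beside -0.01 for all genes tested, and 48 members lay within 0.5 of 0. At an unadjusted p under 0.05 there were 20 members. VC and rbPDI samples did not overlap in 16 members that were higher and 15 that were lower, where 8.06% and 6.7% of all genes did so.

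The member that rose was ENSBTAG00000049223, given above, and the one that fell was the lncRNA ENSBTAG00000061526. The choice of members favours falls in bEECs, since all VC bEEC samples had to reach 20 CPM, and the lowest VC sample of ENSBTAG00000061526 stood at 20.5 CPM, just inside the limit. It had 35.5, 22.3 and 48.8 normalised CPM in VC bEECs, 13.5, 7.69 and 13.6 with rbCAPG and 5.11, 4.51 and 12.2 with rbPDI. All treated samples lay below all VC samples. The log2 fold change was -2.28 with rbPDI (SE 0.49, edgeR adjusted p = 0.0365) and -1.61 with rbCAPG (SE 0.48, edgeR adjusted p = 0.223). The rbPDI call was lost without VC animal 1 or 3 or rbPDI animal 1 or 2, with adjusted p-values from 0.116 to 0.227. With the block the rbCAPG value was also called (-1.58, SE 0.32, edgeR adjusted p = 0.0191).

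A protein-coding member without a symbol, ENSBTAG00000015493, had a like pattern. Its normalised CPM were 21.7, 40.4 and 25.6 in VC bEECs, 6.57, 9.84 and 6.43 with rbCAPG and 4.86, 11.1 and 8.51 with rbPDI. Animal 2 was highest in each of the 3 groups, and no treated sample reached a VC sample. With all 18 samples, the filter on low counts and no block, edgeR did not call it (log2 fold change -1.94, SE 0.51, edgeR adjusted p = 0.143 with rbCAPG, and -1.84, SE 0.51, edgeR adjusted p = 0.128 with rbPDI). With the block it was called in both (edgeR adjusted p = 0.000199 and 0.000213), as it was by DESeq2 (adjusted p = 0.00201 and 0.00317), in the 9 bEEC samples alone (edgeR adjusted p = 0.0198 and 0.0183) and with no filter on low counts (edgeR adjusted p = 0.0446 and 0.0442).

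With the block 12 members were called with rbPDI, 9 higher and 3 lower (13.5% of the members), where 2.96% of all genes tested and 1.61% of the genes at a like VC level were. ENSBTAG00000020580, again the member with the largest log2 fold change, was among the 9. Its value was 2.74 without the block (SE 0.68, edgeR adjusted p = 0.0769) and 3.17 with it (SE 0.38, edgeR adjusted p = 0.000269). MUC1 was among the 9 too, with a log2 fold change of 1.16 without the block (SE 0.31, edgeR adjusted p = 0.105) and 1.19 with it (SE 0.29, edgeR adjusted p = 0.0323). GPX2 was also among them. It had 117, 163 and 114 normalised CPM in VC bEECs, 291, 323 and 180 with rbCAPG and 261, 273 and 278 with rbPDI, so that no treated sample overlapped the VC samples. Its log2 fold change with rbPDI was 1.04 (SE 0.42, edgeR adjusted p = 0.436) and 1.07 with the block (SE 0.24, edgeR adjusted p = 0.0202). With rbCAPG the value was 1.01 (SE 0.42, edgeR adjusted p = 0.548), and with the block 1.00 (SE 0.23, edgeR adjusted p = 0.0389), just under the fold limit.

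OCLN levels in bEECs overlapped between the groups. Its normalised CPM were 85.6, 105 and 89.3 with VC, 100, 91.4 and 118 with rbCAPG and 112, 88.99 and 114 with rbPDI. The log2 fold changes were 0.15 with rbCAPG and 0.17 with rbPDI (SE 0.41 each, edgeR adjusted p = 1 each). OCLN was the only member of the tight junction list for which an identifier was known, out of 30 genes, and MUC1 the only one of 25 genes of the mucin list. Of the 10 gene lists none had the 80% of identifiers needed, so whether junction genes, keratins, transporters or mucins moved together was not tested.

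**Figure D3:**
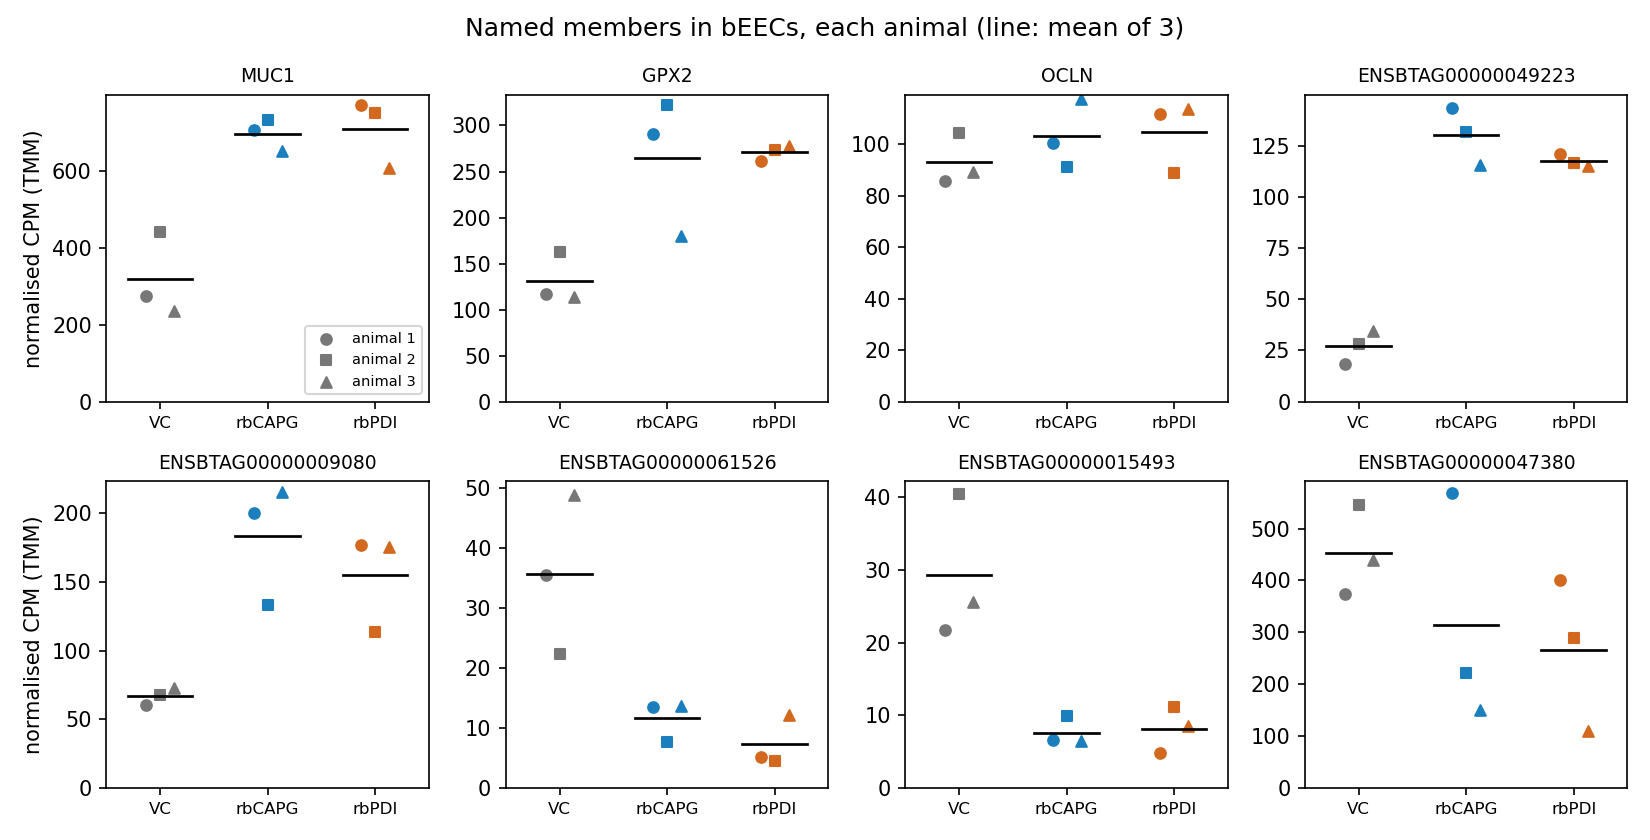
Normalised CPM (TMM) of 8 members in bEECs with VC, rbCAPG and rbPDI, one symbol per animal and a line at the mean of 3, each axis starting at 0. MUC1, GPX2, ENSBTAG00000049223 and ENSBTAG00000009080 lie higher with either protein without overlap, ENSBTAG00000061526 and ENSBTAG00000015493 lie lower without overlap, and OCLN overlaps.

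By DESeq2, 7 members were called with rbCAPG in bEECs and 10 with rbPDI, where 1.38% and 2.01% of the genes it tested were. In both comparisons DESeq2 called MUC1 (adjusted p = 0.00507 and 0.00214), GPX2 (adjusted p = 0.0214 and 0.00963) and ENSBTAG00000061526 (adjusted p = 0.0312 and 0.000115).

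The direction within each animal, with no threshold on its size, was shared by the 3 animals in more members than were called. With rbCAPG 29 members were higher in 3 of 3 animals and 20 were lower in 3 of 3, where 18.5% and 15.3% of all genes tested were, and 15.9% and 17.3% of the genes at a like VC level. With rbPDI 28 were higher and 34 lower in 3 of 3 animals, where 19.8% and 20.6% of all genes were, and 18.6% and 25.1% of the genes at a like VC level. The summed level of the 89 members, much of which a few abundant members hold, was 11132, 15866 and 11968 CPM in VC bEECs, 14701, 17257 and 17795 CPM with rbCAPG and 13548, 18633 and 17924 CPM with rbPDI. It was higher with either protein in each of the 3 animals, although the groups overlapped, and made up between 1.11% and 1.86% of all counts.

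The stromal genes with an identifier, both from the lists of genes that changed with rbCAPG, were also higher in treated bEECs than in most VC samples. HAND2 ranged from 0.290 to 0.573 CPM with rbCAPG and from 0.104 to 0.401 CPM with rbPDI. ZEB1 ranged from 2.44 to 12.1 CPM with rbCAPG and from 3.15 to 10.8 CPM with rbPDI, against the VC ranges given above. Both remained below each bESC sample, and their part in the results of the members was not tested.

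Between rbPDI and rbCAPG no member was called, in samples that had no role in choosing the members. edgeR called 0 of 89, with 0 at an unadjusted p under 0.05, DESeq2 called 0, and edgeR with the block called 0, where 0.0% of all genes tested were called. The log2 fold changes of the 89 members ran from -0.82 to 0.47, and 82 of them lay within 0.5 of 0. With n = 3 these intervals are wide, as in MUC1 (0.03, SE 0.30) and ENSBTAG00000061526 (-0.67, SE 0.47), so a p that missed the threshold does not show that the proteins act alike. Samples did not overlap in 1 member that was higher with rbPDI and 2 that were lower, where 2.14% and 2.32% of all genes did so. In each of the 3 animals 25 members were lower with rbPDI than with rbCAPG and 6 were higher, where 13.5% and 10.9% of all genes were.

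As a set, the epithelial members stayed at low levels in treated bESCs. Of the 89 members, 61 stayed below 0.5 CPM in all 6 treated bESC samples, 28 reached 0.5 CPM in at least 1 of them, 14 reached 1 CPM and 5 reached 2 CPM. Since VC bESCs were held below 0.5 CPM by the choice of members, values above it could occur only in treated samples, and a rise is favoured. Of the 28, 18 had their highest value in rbPDI bESC of animal 1, the smallest library, and without that library 18 members reached 0.5 CPM and 5 reached 1 CPM. In 5 or more of the 6 treated samples 2 members reached 0.5 CPM.

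Relative to VC bESCs the median shift of the set depended on how members at the floor were treated. The median fitted log2 fold change of the members was 0.92 with rbPDI, with quartiles of 0 and 1.97 and 66 of 89 above 0, and 0.06 with rbCAPG, with quartiles of -0.36 and 1.03, beside 0 and -0.01 for all genes tested. The rbPDI median was 0.68 without rbPDI animal 1 and 0.41 without rbPDI animal 2. Fitted values of members with so few counts depend on the prior count, and medians from group means, with groups at the floor set at it, were added after seeing the data. With rbPDI 30 members had 3 counts or fewer in every VC and every rbPDI sample and give no fold, and this median was 0.97 on the log2 scale over the other 59, or 0.07 with those 30 at 0. Without rbPDI animal 1 the values were 0.48 over 57 members and 0 over all 89. With rbCAPG they were -0.03 over 57 members and 0 over all 89. In 3 of 3 animals 18 members were higher with rbPDI than with VC and 2 were lower, where 13.3% and 13.5% of all genes were, and with rbCAPG 7 were higher and 6 lower, where 9.72% and 9.81% were. A rise is favoured by the choice of members in each of these counts.

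The summed level of the members was 7.55, 5.51 and 8.26 CPM in VC bESCs, 16.1, 11.7 and 9.03 CPM with rbCAPG and 60.4, 13.8 and 18.3 CPM with rbPDI. These sums were 0.0347% to 0.0690% of the sum in bEECs of the same animal with VC, 0.0508% to 0.110% with rbCAPG and 0.0740% to 0.446% with rbPDI. The treated groups lay above VC without overlap, which the choice of members favours, since it held each VC value below 0.5 CPM. The treated sums remained far below those of any bEEC sample. A single member, ENSBTAG00000047380, made up much of the highest value. It had 0.342, 0.279 and 0.325 CPM in VC bESCs, 2.73, 0.0678 and 0.621 CPM with rbCAPG and 28.7, 0.530 and 1.98 CPM with rbPDI. Its 28.7 CPM in animal 1 rested on 289 counts and equalled 8.80% of its level in bEECs of the same device. Without it the sum in that library was 31.7 CPM and those of the other rbPDI bESC samples were 13.3 and 16.3 CPM. ENSBTAG00000047380 was not called in bESCs with rbPDI (log2 fold change 4.95, SE 1.31, edgeR adjusted p = 0.212, called in 1 of 12 alternatives, DESeq2, adjusted p = 0.00402), and in bEECs it had 453 ± 86.4 normalised CPM with VC, 313 ± 224 with rbCAPG and 266 ± 147 with rbPDI (SD, n = 3).

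OCLN was the 1 member called in treated bESCs by the fit that leaves out the animal, in a comparison whose VC side the choice of members had held low. The fit with the block and DESeq2 called more members, as given below. Its counts were 7, 10.53 and 12.5 in VC bESCs, 75.25, 56.25 and 43 with rbCAPG and 3, 73.6 and 139.5 with rbPDI. In normalised CPM this was 0.308, 0.227 and 0.257 with VC, 2.05, 1.04 and 0.992 with rbCAPG and 0.261, 1.60 and 3.24 with rbPDI. The rbCAPG samples lay above VC without overlap, whereas with rbPDI animal 1 stayed at the VC level and animals 2 and 3 lay above it. The log2 fold change was 2.82 with rbPDI (SE 0.53, edgeR adjusted p = 0.0402) and 2.37 with rbCAPG (SE 0.53, edgeR adjusted p = 0.185, called in 2 of 12 alternatives, among them DESeq2, adjusted p = 0.000555). This 1 call of 89 (1.12%) stands beside 0.178% of all genes tested, but these shares are not a like comparison. The choice of members favours a rise, and most members passed the filter on low counts through their bEEC levels. In the 9 bESC samples alone that filter kept 20 of the 89 members, and 0 were called. The call was kept without rbPDI animal 1 (edgeR adjusted p = 0.00299) and lost without VC animal 1, 2 or 3 or rbPDI animal 2 or 3, with adjusted p-values from 0.0812 to 0.252. A fit to the 9 bESC samples alone gave 2.73 and an adjusted p of 0.612.

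Among the treated bESC libraries the share of OCLN was highest in rbCAPG of animal 1, and the summed level of the members in rbPDI of animal 1. Within rbCAPG the share of OCLN, that of the median member and the sum were each highest in animal 1 and lowest in animal 3. Within rbPDI the shares of OCLN and of the median member were both lowest in animal 1. As a share of its level in bEECs of the same animal and treatment, OCLN was at 3.17%, 1.52% and 0.875% with rbCAPG in animals 1 to 3 and at 0.329%, 2.11% and 2.65% with rbPDI, while the median member was at 0.0604%, 0.0378% and 0.0366% with rbCAPG and at 0, 0.0812% and 0.0373% with rbPDI. The library with the highest sum of members, rbPDI of animal 1, had the lowest OCLN level of the 6. That level rested on 3 counts, the floor, in the smallest library, so it is barely measured. Of the sum in that library, 60.4 CPM, ENSBTAG00000047380 alone held 28.7 CPM. In VC bESCs the share of OCLN had been 0.340%, 0.255% and 0.371%. By this share OCLN ranked 13, 14 and 17 of the 89 members in VC bESCs, 3, 4 and 8 with rbCAPG and 30, 2 and 2 with rbPDI. How much bEEC RNA the bESC libraries held was not tested.

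MUC1 had 1.5, 5.5 and 15 counts in VC bESCs, 15, 33 and 16 with rbCAPG and 12, 30 and 32 with rbPDI. In normalised CPM it stood at 0.0881, 0.124 and 0.321 with VC, 0.410, 0.612 and 0.369 with rbCAPG and 1.04, 0.648 and 0.740 with rbPDI, without overlap between treated and VC samples. For MUC1, too, the choice of members had held the VC side low, which favours a rise. The log2 fold change with rbPDI was 2.01 (SE 0.41, edgeR adjusted p = 0.0713), called with the block (2.00, SE 0.42, edgeR adjusted p = 0.0334), by DESeq2 (1.99, adjusted p = 0.00227) and without VC animal 3 (2.76, edgeR adjusted p = 0.0471), and with rbCAPG it was 1.29 (SE 0.41, edgeR adjusted p = 0.894). These levels were between 0.0587% and 0.190% of those in bEECs of the same animal, against 0.0226% to 0.168% with VC. GPX2 had 6 counts or fewer in each of the 9 bESC samples.

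Across the set, edgeR called 0 members with rbCAPG in bESCs, with 13 at an unadjusted p under 0.05, while DESeq2 called 2 and edgeR with the block 1. Of all genes tested, edgeR called 0.0948% without the block and 0.48% with it, and DESeq2 0.412%. With rbPDI there were 24 members at an unadjusted p under 0.05. The block gave 6 calls, all higher, where 1.05% of all genes were called, and DESeq2 gave 10, where 1.02% were. Among the 6, ENSBTAG00000032819 had 0, 16 and 0 counts with rbPDI and ENSBTAG00000009314 had 11, 0 and 0, so each call rested on 1 library. ENSBTAG00000020018 had 0, 2 and 12 counts, and these members had 0 in every VC bESC sample. The others were OCLN, MUC1 and ENSBTAG00000007958, the last with 20, 7 and 7 counts against 3, 1 and 0 with VC. Samples did not overlap in 5 members that were higher and 2 that were lower with rbCAPG, where 3.02% and 2.1% of all genes did so, and in 9 that were higher and 0 that were lower with rbPDI, where 4.1% and 3.39% did so. The choice of members and the filter limit all these bESC counts and shares, as they do the call of OCLN.

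**Figure D4:**
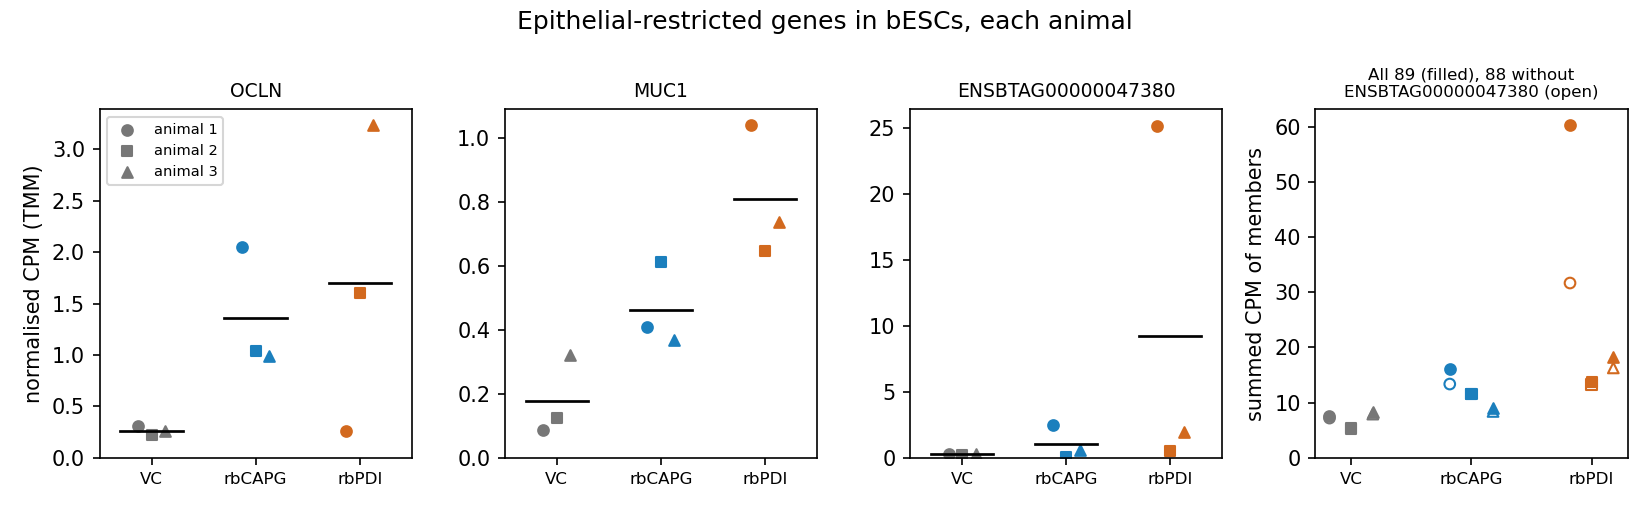
Normalised CPM (TMM) of OCLN, MUC1 and ENSBTAG00000047380 in bESCs with VC, rbCAPG and rbPDI (one symbol per animal, line at the mean of 3), and the summed CPM of all 89 members (filled) or of 88 without ENSBTAG00000047380 (open). With rbPDI animal 1 has the highest sum, 60.4 CPM, and the lowest OCLN level, 0.261 normalised CPM, which rests on 3 counts, the floor.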

How the data were processed

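Trimming was done with Trimmomatic, alignment with STAR and counting with featureCounts. The authors let reads that matched several places or genes count as fractions of each, so the values they deposited are estimated counts without normalization. In 86 of the 89 members a value was not whole in some sample, no strand option was stated, and reads shared with related or overlapping genes cannot be separated. Counts were rounded, filtered by filterByExpr to 17931 genes, which kept all 89 members, and tested in R 4.3.3 with edgeR 4.0.16 (TMM, quasi-likelihood, a mean for each of 6 groups, 12 residual degrees of freedom, Benjamini-Hochberg over all genes). The standard error is the absolute log2 fold change divided by the square root of F. DESeq2 1.42.0, other filters and scalings, the animal as a block and each sample left out were alternatives.

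Replicate numbers stand for the 3 animals, which pairs the samples: deviations from the group means of same-numbered samples correlated at 0.481 on average in bEECs (lowest 0.311) and 0.396 in bESCs (lowest 0.129), over 9 pairs each. For 2 groups of 3 the smallest two-sided p of an exact permutation test is 0.1, so single genes were not tested that way. Floors of 3 counts cover counting error only.

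Members and lists were chosen with earlier results of these data known. Genes were to be named if they had a symbol and were called, among the 10 highest in VC bEECs, among the 10 highest in treated bESCs or in a gene list, which took MUC1 and OCLN. GPX2 and the identifiers without a symbol were chosen after their values were seen. The 245 identifiers with annotation, 190 of them with a symbol, came from the study's lists of changed genes. The columns of fold changes and p-values in those lists were not used here. TMM factors ran from 0.703 to 1.22. A planned search for promoter motifs was not run.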

Additional observations from a re-analysis of the deposited data

Results flagged for a closer look

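In 2 of the named members every animal moved one way in bEECs and the other way in bESCs under the same treatment, and the difference was not tested. ENSBTAG00000061526 was lower with rbPDI in bEECs of each animal, by a mean of -28.3 normalised CPM, and higher in each bESC sample pair, where its counts went from 1.5, 2.5 and 1 to 4, 6 and 2. ENSBTAG00000015493 was lower with rbCAPG in bEECs of each animal, by a mean of -21.6 normalised CPM, and higher in each bESC pair, where its counts went from 3, 1.25 and 0 to 15, 5 and 2. In bESCs most of these counts lie at or near the floor of 3 counts. Opposite directions are partly built in, since members were chosen for high VC bEEC and low VC bESC values, and both lie near the epithelial limit, with a lowest VC bEEC sample of 20.5 and 22.5 CPM.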

How the results depend on the processing

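The number of members changed with the epithelial limit, to 147 at 10 CPM and 47 at 40 CPM, against 89. For members called with rbCAPG in bEECs (2), no filter on low counts gave 4, the 9 bEEC samples alone 4, DESeq2 7 and the replicate block within cell type 9, and leaving out 1 sample gave 1 to 3 (1 without VC animal 1 or 3 or rbCAPG animal 1 or 3). With rbPDI in bEECs (2) the same settings gave 4, 6, 10 and 12, and leaving out 1 sample gave 1 to 4 (1 without VC animal 1 or 3 or rbPDI animal 1 or 2, and 4 without VC animal 2). In bESCs with rbCAPG (0), no filter, the replicate block and DESeq2 gave 1, 1 and 2, and leaving out 1 sample gave 0. In bESCs with rbPDI (1), the 9 bESC samples alone gave 0 (20 of the 89 members were tested there), the replicate block 6 and DESeq2 10, and leaving out 1 sample gave 0 to 1 (0 without VC animal 1 or 2 or rbPDI animal 2 or 3). The causes were not tested. The 89 calls of bEECs against bESCs, the 0 calls of rbPDI against rbCAPG, the median fold changes in bEECs and the 61 members below the limit in treated bESCs kept within 1.5 times their value, or within 1 SD between replicates, under their alternatives. The animal as a block over both cell types, added after seeing the data, also gave 89. The replicate block changed no call of a named member other than those given. Leaving out bESC samples gave 61 to 71 members below the limit, and leaving out VC samples gave 95 to 103 members. Values in bESCs rest on few counts, so depth limits them.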
